A study of Rattus norvegicus with 16 samples.

Results

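Bile acid transporters and the FXR axis were followed in rat liver through 10 gene symbols. They comprised the carriers that take bile acids up from blood (Slc10a1, Slco1a1, Slco1a4 and Slco1b2), the canalicular exporters (Abcb11, Abcb4 and Abcc2), the basolateral exporter Abcc3, and the nuclear receptors FXR (Nr1h4) and SHP (Nr0b2). The genes were named by symbol, with earlier results of these data known, and 8 of the 10 were among the 17055 gene symbols counted. Slco1a4 and Slco1b2 were not listed under those names. The files list Slco1b3, which RefSeq gives as a synonym of Slco1b2, and Slco1a2, which it gives as a synonym of both Slco1a4 and Slco1a5, although Slco1a5 has a row of its own. Values of these older symbols are given beside the members and are not counted with them.

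Male Sprague-Dawley rats of 10 weeks made up 4 groups of 12 rats. In the isoflurane groups anesthesia was induced and maintained with isoflurane, and in the propofol groups ketamine-xylazine was given for induction and propofol for maintenance, so that a comparison of the anesthetics is also a comparison of the induction drugs. Sepsis was produced by cecal ligation and puncture (CLP), in which the tied cecum is pierced and gut bacteria leak into the abdomen. Controls had a celiotomy without it. Livers were taken at 8 h, and each library was a pool of 3 rats, which left 4 libraries per group. Numbered as in the labels, the septic groups are libraries 1 to 4 (isoflurane) and 9 to 12 (propofol), and their controls are libraries 5 to 8 and 13 to 16. Replicate error here is thus the variation among pools, not among single rats.

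Hepatocytes take conjugated bile acids up from portal blood across the basolateral membrane, chiefly through the sodium-dependent carrier NTCP (Slc10a1) and in part through sodium-independent organic anion carriers of the Slco family. They secrete them into the canaliculus through the bile salt export pump BSEP (Abcb11), while Abcb4 moves phosphatidylcholine to the bile side of the membrane and Abcc2 exports conjugates such as bilirubin glucuronide. FXR is the nuclear receptor that binds bile acids. As a dimer with RXR it raises transcription of SHP and of the export pump, and SHP, which has no DNA-binding domain, represses genes of bile acid synthesis.

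Promoter sequences are shown for 1 uptake carrier, 1 exporter and SHP, whose mRNA levels all fell in sepsis. They are the 250 bases before the annotated start in RefSeq, build GRCr8, on the strand of the gene, and 7 of the 10 symbols asked for had such an entry. Capitals mark AGGTCA, the hexamer that many nuclear receptors read, or its reverse complement TGACCT. The Slc10a1 sequence is from chr6:106357945-106358194 (minus strand), that of Abcc2 from chr1:252613625-252613874 (plus strand) and that of Nr0b2 from chr5:151062910-151063159 (plus strand).
Slc10a1: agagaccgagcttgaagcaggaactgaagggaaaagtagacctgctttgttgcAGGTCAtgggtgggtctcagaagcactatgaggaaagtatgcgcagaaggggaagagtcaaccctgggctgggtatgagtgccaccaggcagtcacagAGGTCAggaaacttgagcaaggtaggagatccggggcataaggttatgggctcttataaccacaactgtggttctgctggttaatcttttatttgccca
Abcc2: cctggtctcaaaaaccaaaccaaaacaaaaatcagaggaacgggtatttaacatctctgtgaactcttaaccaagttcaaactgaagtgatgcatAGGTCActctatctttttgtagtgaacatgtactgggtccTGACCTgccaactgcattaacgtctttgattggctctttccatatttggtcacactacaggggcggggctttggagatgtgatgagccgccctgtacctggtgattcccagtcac
Nr0b2: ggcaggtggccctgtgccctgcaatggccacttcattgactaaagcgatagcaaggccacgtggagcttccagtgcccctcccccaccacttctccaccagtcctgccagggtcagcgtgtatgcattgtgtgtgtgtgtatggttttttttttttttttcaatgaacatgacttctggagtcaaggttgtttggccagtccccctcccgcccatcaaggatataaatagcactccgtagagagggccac
Slc10a1 and Abcc2 each held 2 matches of the hexamer and Nr0b2 held 0. Of the other members with an entry, Slco1b2 held 1 match, and Slco1a1, Slco1a4 and Abcb4 held 0. Among 33469 promoters of the same length, 14.1% held the hexamer on either strand and 1.27% held it at 2 or more positions. The exact inverted repeat with 1 spacer base, AGGTCANTGACCT, in which N is any base, stood in 0.0269% of these promoters, and the direct repeat AGGTCANAGGTCA in 0.0508%. Neither repeat was in the window of any member, and both contain the hexamer, so the searches overlap. These are matches of letters only.

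Each library had between 14199422 and 49937173 reads assigned to genes. Levels are given as CPM, the reads of a gene per 1000000 reads on genes in its library after TMM normalization over the 16 libraries. They are not corrected for transcript length, so a level is compared between groups and never between genes. Summed CPM of 11 hepatocyte markers, among them Alb, lay between 94800 and 149000 in the 16 libraries, and none of these markers was at 0.

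In sepsis under isoflurane, 6 of the 8 members were lower than in the isoflurane control group and 0 were higher. They were Slc10a1, Slco1a1, Abcb4, Abcc2, Nr1h4 and Nr0b2. Nr0b2 had enough reads for this test in the control libraries only, so a call higher was hardly possible for it. All 8 had a log2 fold change below 0, with a median of -0.88, against a median of 0.0061 over all 10361 genes tested. Of all genes tested 24.4% were called lower and 25.7% higher, at an adjusted p below 0.05. In sepsis under propofol, 7 of the 8 were lower, the same 6 and Abcc3, again with 0 higher. There the median was -0.69, against -0.0016 over 10348 genes, of which 21.7% were called lower and 20.4% higher. Under propofol 48.4% of all calls were higher, and with scaling by library totals alone 38.2% were, while the members called numbered 7 under either scaling. The export pump Abcb11 passed the test under neither anesthetic. In bulk liver, fewer hepatocytes and less RNA per hepatocyte cannot be told apart.

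**Figure D1:**
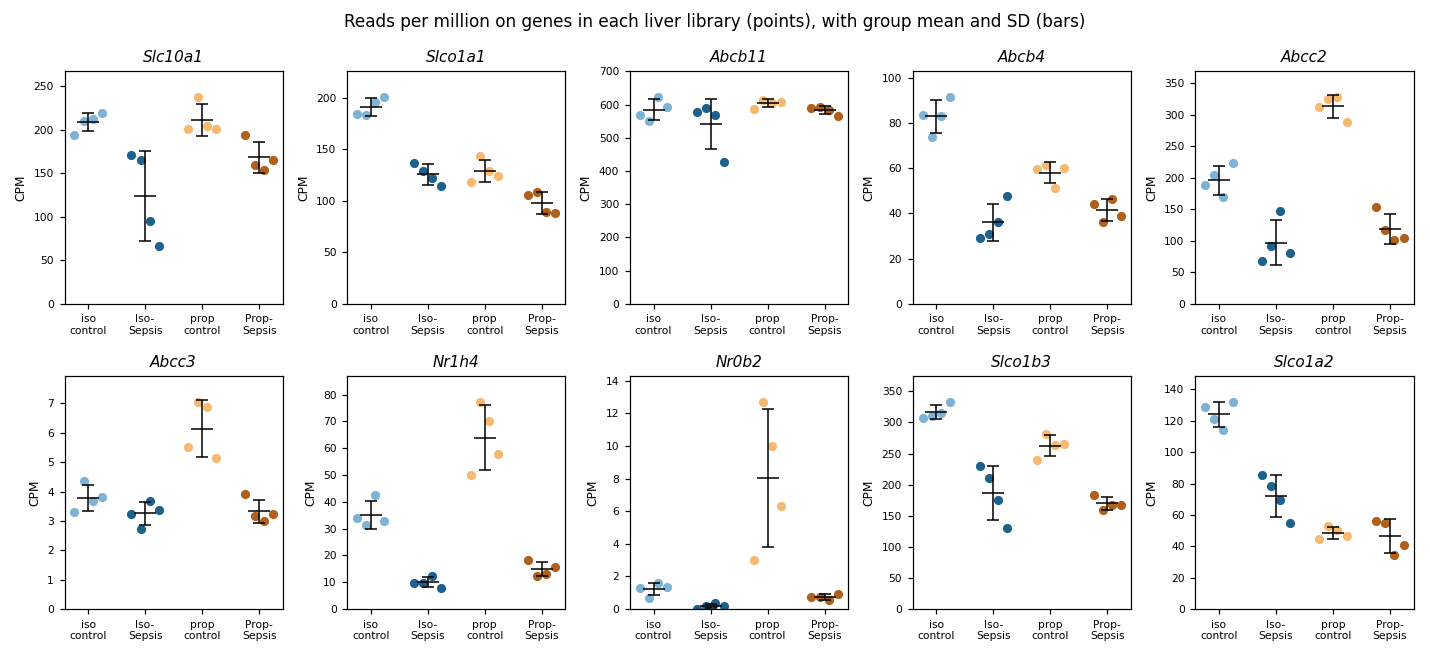
Level of each member in each library, in CPM, with points for libraries in order of their number, horizontal bars for the mean of 4 libraries and vertical bars for the SD; the last 2 panels are the older symbols Slco1b3 and Slco1a2. Nr1h4 and Nr0b2 are lowest in sepsis under both anesthetics, Abcb11 lies between 428 and 624 CPM in all 16 libraries, and Slc10a1 spreads from 66.4 to 171 CPM in Isoflurane-Sepsis.

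The 2 nuclear receptors fell furthest among the members. Nr1h4, which encodes FXR, stood at 9.73, 9.54, 12.5 and 8.04 CPM in the Isoflurane-Sepsis libraries and at 33.8, 31.2, 42.5 and 32.9 CPM in the isoflurane control libraries. In the propofol groups it stood at 18.2, 12.3, 13.1 and 15.7 CPM with sepsis and at 50.2, 77.3, 70 and 57.9 CPM without. Every septic library lay below every control library of either anesthetic. The level was 3.51-fold lower under isoflurane (log2 fold change -1.81, SE 0.16, adjusted p = 8.11e-05) and 4.33-fold lower under propofol (log2 fold change -2.11, SE 0.16, adjusted p = 3.22e-05). These log2 fold changes differed by 0.29 (95% interval -0.19 to 0.78, adjusted p = 0.441 for the interaction).

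Nr0b2, which encodes SHP, is a classical target gene of FXR, and its reads were few. Counted reads summed over the 4 libraries of a group were 13 in Isoflurane-Sepsis, 139 in isoflurane control, 69 in Propofol-Sepsis and 608 in propofol control. In Isoflurane-Sepsis the libraries held 0, 0.193, 0.363 and 0.181 CPM, and the 0 in library 1 allows up to 0.15 CPM from counting error alone (3 reads). The isoflurane control libraries held 1.27, 0.693, 1.58 and 1.33 CPM. In the propofol groups the levels were 0.734, 0.733, 0.534 and 0.942 CPM with sepsis and 3.02, 12.7, 10 and 6.33 CPM without. Within each anesthetic the septic and control libraries did not overlap, and the propofol control libraries ranged from 3.02 to 12.7 CPM. Nr0b2 was 6.55-fold lower in sepsis under isoflurane (log2 fold change -2.71, SE 0.54, adjusted p = 0.00339) and 10.7-fold lower under propofol (log2 fold change -3.42, SE 0.43, adjusted p = 0.000284). The Isoflurane-Sepsis libraries had 0, 3, 7 and 3 reads, below the minimum count of 10. Nr0b2 thus entered the isoflurane test through the control libraries alone, and a call higher was hardly possible. Without library 3 the isoflurane value moved to -3.35, and over 15 alternatives it ran from -3.35 to -2.25. The interaction was 0.70 with a 95% interval from -1.13 to 2.52, so at these read numbers a difference between the responses could not be resolved in either direction.

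**Figure D2:**
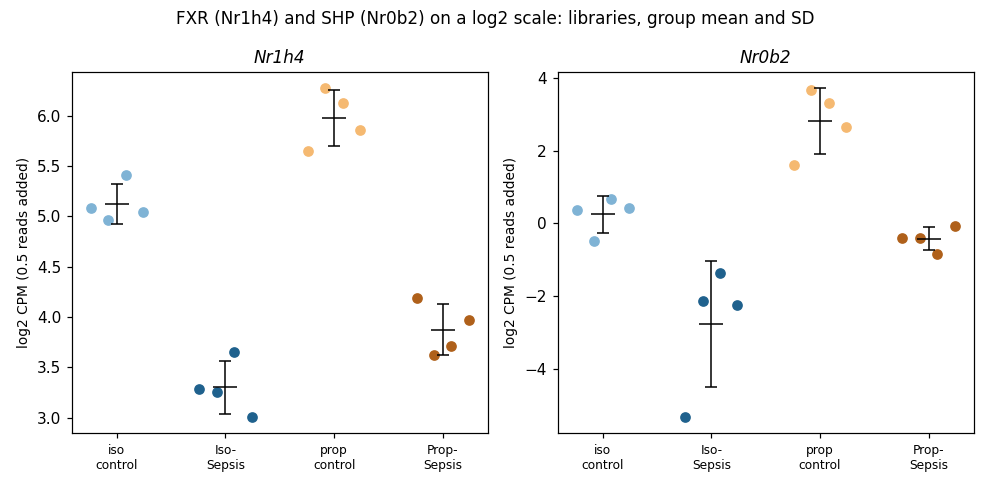
Nr1h4 (left) and Nr0b2 (right) in each library as log2 CPM with 0.5 reads added, with the mean and SD of 4 libraries as bars. The order of the groups is the same for both genes, from propofol control through isoflurane control and Propofol-Sepsis down to Isoflurane-Sepsis, and the lowest Nr0b2 point is library 1, which had 0 reads.

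Across the 4 groups, Nr1h4 averaged 63.9 ± 12.1 CPM in propofol control, 35.1 ± 5.04 in isoflurane control, 14.8 ± 2.67 in Propofol-Sepsis and 9.96 ± 1.88 in Isoflurane-Sepsis (SD, n = 4 each). Nr0b2 had the same order, at 8.02 ± 4.23, 1.22 ± 0.375, 0.736 ± 0.167 and 0.184 ± 0.148 CPM. Of the neighbours in this order, isoflurane control and Propofol-Sepsis overlapped for Nr0b2 and did not for Nr1h4.

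The uptake carriers were lower in sepsis by smaller factors. Slc10a1, the sodium-dependent carrier, stood at 171, 165, 94.8 and 66.4 CPM in Isoflurane-Sepsis against 194, 210, 212 and 219 CPM in isoflurane control. It stood at 194, 160, 154 and 165 CPM in Propofol-Sepsis against 201, 238, 204 and 201 CPM in propofol control. The septic libraries lay below the control libraries under each anesthetic, and libraries 3 and 4 lay far below libraries 1 and 2. The level was 1.68-fold lower under isoflurane (log2 fold change -0.75, SE 0.26, adjusted p = 0.0408) and 1.26-fold lower under propofol (log2 fold change -0.33, SE 0.091, adjusted p = 0.0151). The isoflurane call was lost when any 1 of libraries 3, 5, 6, 7 and 8 was left out, with adjusted p between 0.0682 and 0.0933, and the propofol call was lost with all 16 libraries in 1 fit (adjusted p = 0.234). The responses differed by -0.42 (95% interval -1.06 to 0.22, adjusted p = 0.4).

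Slco1a1, a sodium-independent carrier of bile acids and other organic anions, varied less between libraries. Its levels were 137, 129, 122 and 114 CPM in Isoflurane-Sepsis and 184, 183, 196 and 201 CPM in isoflurane control. The propofol libraries held 106, 108, 88.9 and 88.4 CPM with sepsis and 118, 143, 129 and 124 CPM without. Sepsis and control did not overlap in either pair of groups. The fall was 1.52-fold under isoflurane (log2 fold change -0.60, SE 0.075, adjusted p = 0.000375) and 1.32-fold under propofol (log2 fold change -0.40, SE 0.091, adjusted p = 0.00643). Members of the Slco1a group are close copies of each other, so the reads assigned to each are uncertain.

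The older symbols gave further values for uptake carriers. Slco1b3, the listed synonym of Slco1b2, ranged from 131 to 230 CPM in Isoflurane-Sepsis and from 307 to 333 CPM in isoflurane control, and from 160 to 184 CPM in Propofol-Sepsis and from 240 to 281 CPM in propofol control. It was 1.69-fold lower under isoflurane (log2 fold change -0.76, SE 0.15, adjusted p = 0.00353) and 1.55-fold lower under propofol (log2 fold change -0.64, SE 0.071, adjusted p = 0.000165). Slco1a2 ranged from 54.7 to 85.7 CPM in Isoflurane-Sepsis and from 114 to 132 CPM in isoflurane control, and was 1.72-fold lower (log2 fold change -0.78, SE 0.13, adjusted p = 0.00139). In the propofol groups it ranged from 34.3 to 55.9 CPM with sepsis and from 44.5 to 52.7 CPM without, and did not pass the test (log2 fold change -0.07, 95% interval -0.4 to 0.26, adjusted p = 0.736). The interaction for Slco1a2 was -0.72 with an adjusted p of 0.0708. It was called with DESeq2 (adjusted p = 0.025), without library 1 (adjusted p = 0.0194) and without library 11 (adjusted p = 0.0429).

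**Figure D3:**
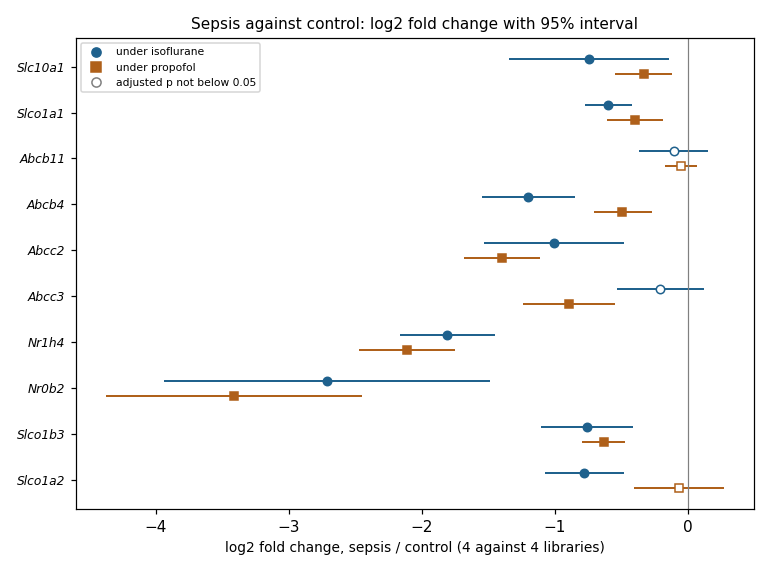
Log2 fold change of sepsis against control for the 8 members and the 2 older symbols, under isoflurane (circles) and propofol (squares), with 95% intervals from the edgeR fits of 4 against 4 libraries; open symbols did not pass the adjusted p of 0.05. Abcb11 lies next to 0 under both anesthetics, and Nr0b2 has the lowest values and the widest intervals.

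Among the canalicular exporters, Abcb4 and Abcc2 fell under each anesthetic and Abcb11 did not pass the test. Abcb11, the bile salt export pump, stood at 578, 589, 570 and 428 CPM in Isoflurane-Sepsis and at 570, 552, 624 and 594 CPM in isoflurane control. The propofol libraries held 590, 594, 583 and 567 CPM with sepsis and 587, 615, 605 and 608 CPM without. All groups overlapped, and library 4 lay apart from the other libraries of its group. Its log2 fold change was -0.11 under isoflurane (95% interval -0.36 to 0.14, adjusted p = 0.432) and -0.06 under propofol (95% interval -0.17 to 0.06, adjusted p = 0.397). The lower bounds of these intervals lie above the log2 fold changes of Nr1h4 and Nr0b2 in the same comparisons.

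Abcb4, which supplies bile with phosphatidylcholine, stood at 29.2, 31.1, 36 and 47.7 CPM in Isoflurane-Sepsis and at 83.4, 74, 83.1 and 91.7 CPM in isoflurane control. In the propofol groups it stood at 44.2, 36.3, 46.6 and 38.9 CPM with sepsis and at 59.6, 61.4, 51.4 and 59.9 CPM without. The groups did not overlap under either anesthetic. Abcb4 was 2.3-fold lower under isoflurane (log2 fold change -1.20, SE 0.15, adjusted p = 0.000385) and 1.41-fold lower under propofol (log2 fold change -0.49, SE 0.094, adjusted p = 0.00251). It was the only member called for the interaction, with the fall larger under isoflurane by 0.72 on the log2 scale (interaction -0.72, SE 0.18, adjusted p = 0.0487). For the interaction 1.06% of 10621 genes were called lower and 1.66% higher, 289 genes in all, and this number ran from 54 without library 12 to 1615 without library 1. The Abcb4 interaction was lost under RLE size factors (adjusted p = 0.0509), with no filter on low counts (0.0593), with counts thinned to the shallowest library (0.0611), and when any 1 of 13 of the 16 libraries was left out, where its adjusted p reached 0.0986. It was kept without library 1, 4 or 10.

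Abcc2, the exporter of conjugated organic anions, stood at 67.6, 91.8, 148 and 81 CPM in Isoflurane-Sepsis and at 189, 205, 169 and 223 CPM in isoflurane control. It stood at 154, 117, 102 and 105 CPM in Propofol-Sepsis and at 313, 325, 329 and 288 CPM in propofol control. No septic library reached the control libraries of its anesthetic, and the nearest was library 3. Abcc2 was 2.01-fold lower under isoflurane (log2 fold change -1.01, SE 0.23, adjusted p = 0.00657) and 2.64-fold lower under propofol (log2 fold change -1.40, SE 0.13, adjusted p = 6.01e-05). The difference between the responses was 0.38 (95% interval -0.19 to 0.95, adjusted p = 0.4).

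Abcc3, which returns organic anions from the hepatocyte to the blood, had low counts. Its levels were 3.24, 2.71, 3.68 and 3.38 CPM in Isoflurane-Sepsis and 3.29, 4.36, 3.67 and 3.81 CPM in isoflurane control, and these groups overlapped. In Propofol-Sepsis it stood at 3.9, 3.18, 2.99 and 3.22 CPM, and all 4 propofol control libraries were higher, at 5.53, 7.05, 6.86 and 5.13 CPM. The log2 fold change was -0.21 under isoflurane (95% interval -0.53 to 0.11, adjusted p = 0.248) and -0.89 under propofol (SE 0.15, adjusted p = 0.00134). The difference between the responses, 0.68 on the log2 scale, had an adjusted p of 0.0741. It passed with DESeq2 (adjusted p = 0.0422) and without library 1 (adjusted p = 0.0459).

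Markers of other liver cell types were read in the same comparisons. Over all genes tested, 24.4% were called lower and 25.7% higher under isoflurane. Under propofol these shares were 21.7% and 20.4%, and some of the counts of calls below lie near such shares. Summed over 8 neutrophil and monocyte markers, the level was 35.7 to 115 CPM in Isoflurane-Sepsis and 16.9 to 19.5 CPM in isoflurane control, and 36.4 to 53.2 CPM in Propofol-Sepsis and 18.3 to 25.4 CPM in propofol control. Of the 6 of these markers that were tested, 5 rose under isoflurane and 4 under propofol. Of the 11 hepatocyte markers, 1 rose and 4 fell under isoflurane, and 2 rose and 1 fell under propofol. Their summed level was 119000 to 137000 CPM in Isoflurane-Sepsis and 138000 to 149000 CPM in isoflurane control, and it overlapped between sepsis and control under propofol, at 94800 to 109000 and 98200 to 108000 CPM. Endothelial markers summed to 112 to 128 CPM in Isoflurane-Sepsis against 158 to 197 CPM in its control, and to 151 to 159 against 183 to 224 CPM under propofol. Of these markers, Kdr, Stab2, Lyve1 and Tek fell under isoflurane, while Pecam1 and Cdh5 were not called. Under propofol Kdr and Stab2 fell, Pecam1 rose (log2 fold change 0.41, adjusted p = 0.00272), and Cdh5, Lyve1 and Tek were not called. Kdr changed most, with log2 fold changes of -2.17 under isoflurane and -1.82 under propofol. Of 7 Kupffer cell markers, 5 rose and 1 fell under isoflurane and 2 rose and 1 fell under propofol, and of 8 stellate cell markers 3 rose and 1 fell, then 1 rose and 3 fell. Cholangiocyte markers summed to 32.6 to 40 CPM in Isoflurane-Sepsis against 40.4 to 42.8 CPM in its control, and to 34.8 to 38.4 against 39.5 to 47.6 CPM under propofol, without overlap in either pair. Of the 6 that were tested, 2 rose and 1 fell under isoflurane, and 0 rose and 1 fell under propofol. Lymphocyte markers summed to 11.8 to 18.9 CPM in Isoflurane-Sepsis and 11.9 to 14.4 CPM in its control, which overlapped, and to 10.2 to 12 CPM in Propofol-Sepsis against 13.1 to 15.4 CPM in its control, which did not. Only Cd8a and Cd4 had enough reads to be tested. Cd8a rose under isoflurane alone, and Cd4 fell under propofol alone. In each list no marker present in the files was at 0 in a whole group. The part of these cells in the members' values was not tested.

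Between the anesthetics in control liver, 6 of the 8 members differed. Slco1a1 and Abcb4 were higher under isoflurane, and Abcc2, Abcc3, Nr1h4 and Nr0b2 were lower. Of 10314 genes tested, 21.6% were called higher under isoflurane and 21.7% lower. With scaling by library totals alone 22.9% of all calls were higher, against 49.8%, and the median over all genes moved to -0.145. Members called under that scaling numbered 7, since Abcb11 was then called lower (log2 fold change -0.19, adjusted p = 0.00692). The libraries of the anesthetics also carry different name prefixes, so that anesthetic, induction drugs and any difference between these sets of libraries cannot be told apart. All 11 hepatocyte markers were higher in isoflurane control than in propofol control.

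Nr0b2 was 6.48-fold lower in isoflurane control than in propofol control (log2 fold change -2.70, SE 0.40, adjusted p = 0.000401) and Nr1h4 was 1.82-fold lower (log2 fold change -0.87, SE 0.13, adjusted p = 0.000555). Abcc2 was 1.6-fold lower (log2 fold change -0.67, adjusted p = 0.000119) and Abcc3 was 1.62-fold lower (log2 fold change -0.70, adjusted p = 0.00171). Slco1a1 was 1.49-fold higher (log2 fold change 0.57, adjusted p = 7.24e-05) and Abcb4 was 1.43-fold higher (log2 fold change 0.52, adjusted p = 0.000408). Of the older symbols, Slco1a2 was 2.55-fold higher under isoflurane (adjusted p = 1.36e-06). Slco1b3 was 1.21-fold higher (adjusted p = 0.00311), a call that was lost under 2 of 16 alternatives. Slc10a1 differed by -0.01 (95% interval -0.16 to 0.13) and Abcb11 by -0.05 (95% interval -0.15 to 0.07).

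In septic liver, 3 of the 8 members differed between the anesthetics. Slco1a1 was higher under isoflurane (log2 fold change 0.36, SE 0.10, adjusted p = 0.0394), and Nr1h4 (log2 fold change -0.57, SE 0.17, adjusted p = 0.0435) and Nr0b2 (log2 fold change -2.00, SE 0.57, adjusted p = 0.0407) were lower. Of 10272 genes tested, 10.6% were called higher and 8.66% lower, 1982 genes in all, and this number ran from 249 without library 12 to 2867 without library 1. All 3 calls were lost with no filter on low counts and when library 2, 9, 11 or 12 was left out, 2 were lost without library 1 or 4, and 1 was lost without library 3. Septic libraries of the anesthetics overlapped for Nr1h4 and did not for Nr0b2 and Slco1a1. Nr0b2 entered this test through the Propofol-Sepsis libraries alone, so a call higher under isoflurane was hardly possible. With scaling by library totals alone 21.5% of all calls were higher, against 55.1%, and the call of Slco1a1 was lost (log2 fold change 0.21, adjusted p = 0.143). The remaining 5 members had adjusted p between 0.265 and 0.905. The older symbol Slco1a2 was higher under isoflurane (log2 fold change 0.63, adjusted p = 0.0471), a call that was lost under 8 of 16 alternatives. Slco1b3 did not pass (adjusted p = 0.558).

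**Figure D4:**
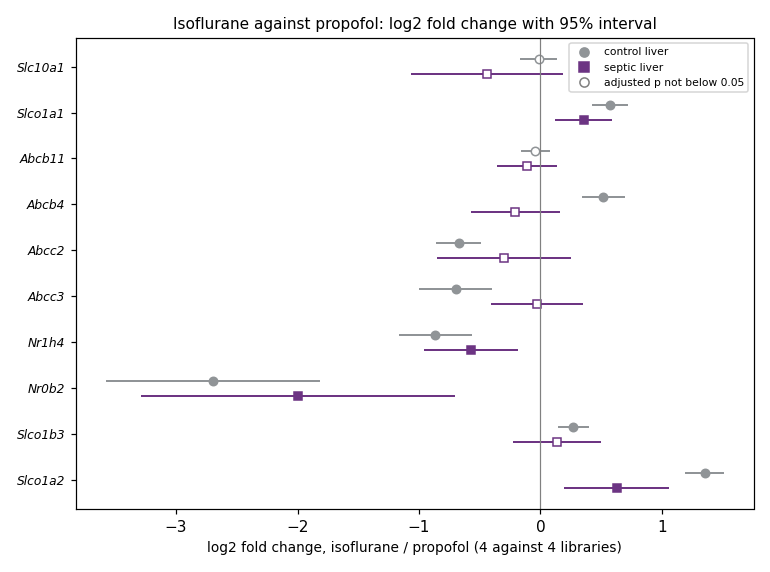
Log2 fold change of isoflurane against propofol for the 8 members and the 2 older symbols in control liver (circles) and septic liver (squares), with 95% intervals; open symbols did not pass the adjusted p of 0.05. Nr1h4 and Nr0b2 lie below 0 and Slco1a1 above 0 in both settings, while Abcb4 lies above 0 in control liver only.

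The other genes of bile acid handling were read from lists. Of 16 genes of bile acid synthesis and conjugation, 11 fell and 1 rose in sepsis under isoflurane, and 13 fell and 0 rose under propofol. Their median log2 fold changes were -0.62 and -0.59. Over all genes tested, 24.4% were called lower and 25.7% higher under isoflurane, and 21.7% and 20.4% under propofol. Cyp7a1, the rate-limiting enzyme of the classical pathway, fell under isoflurane (log2 fold change -1.79, SE 0.63, adjusted p = 0.0398) and under propofol (log2 fold change -2.53, SE 0.59, adjusted p = 0.00738), and the isoflurane call was lost under 8 of 16 alternatives, with DESeq2 (adjusted p = 0.0505), with thinned counts (adjusted p = 0.0536) and without library 1, 2, 4, 6, 7 or 8 (adjusted p up to 0.104). Cyp8b1, which sets the share of cholic acid, had a log2 fold change of -1.32 under isoflurane that did not pass (adjusted p = 0.107) and fell under propofol (log2 fold change -1.23, adjusted p = 0.00184). In library 4 it stood at 4.59 CPM, against 51.1 to 93.9 CPM in libraries 1 to 3, and without library 4 it was called (log2 fold change -0.94, adjusted p = 0.0105). With all 16 libraries in 1 fit Cyp8b1 was called under isoflurane (adjusted p = 0.0357), and its propofol call was lost (adjusted p = 0.0632). Baat, which conjugates bile acids to taurine or glycine, fell under both anesthetics, with log2 fold changes of -2.46 under isoflurane and -2.38 under propofol. Akr1c14 fell with log2 fold changes of -2.67 and -2.27 in the same order, and Acox2, a peroxisomal oxidase of the side chain, with -1.97 and -0.63. Cyp39a1, a sterol hydroxylase, had -1.57 and -1.33, both called. Cyp7b1, of the alternative pathway, was the gene that rose under isoflurane (log2 fold change 1.10, adjusted p = 0.00173).

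Among the other transport and lipid flippase genes, 15 were tested. Under isoflurane 10 fell and 2 rose, and under propofol 11 fell and 2 rose, with median log2 fold changes of -0.76 and -0.56. The shares over all genes tested were 24.4% lower and 25.7% higher under isoflurane, and 21.7% and 20.4% under propofol. Abcb1a fell, with log2 fold changes of -2.11 under isoflurane and -2.37 under propofol, while Abcb1b, a closely related drug efflux pump, rose by 1.87 and 2.79 on the same scale, and reads of such a pair can be split between them. Abcc6 fell with log2 fold changes of -1.58 and -1.24, and Slc10a2, the sodium-dependent carrier best known from ileum and bile ducts, with -1.60 and -1.06. Abcc4, which like Abcc3 exports to the blood, also fell (log2 fold change -0.77, adjusted p = 0.00279, and -0.56, adjusted p = 0.00358). Slc51a, a subunit of the basolateral bile acid exporter, had too few reads to be tested, and Slc51b was not analysed here.

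Of 15 tested receptors and regulators of the pathway, 7 fell and 6 rose under isoflurane, and 8 fell and 3 rose under propofol, with median log2 fold changes of -0.06 and -0.35. Beside them, 24.4% of all genes tested were called lower and 25.7% higher under isoflurane, and 21.7% and 20.4% under propofol. Nr1i3, the receptor CAR, fell with log2 fold changes of -3.40 under isoflurane and -5.10 under propofol, from 2.35 to 5.2 CPM in isoflurane control and 8.56 to 18.5 CPM in propofol control to at most 1.02 CPM in any septic library. Nr1i3 entered both tests through the control libraries, so a call higher was hardly possible. The FXR partner Rxra fell as well (log2 fold change -1.19, adjusted p = 0.000409, and -0.81, adjusted p = 9.42e-05), as did Rxrg, with -3.08 and -2.80. Rxrg had only 26 reads over the Isoflurane-Sepsis libraries, and it entered the isoflurane test through the control libraries. Rxrb, also an RXR gene, went the other way under isoflurane (log2 fold change 0.46, adjusted p = 0.00415). Under propofol Rxrb did not pass (log2 fold change 0.14, adjusted p = 0.212). Nr1i2, the receptor PXR, fell with log2 fold changes of -1.27 and -0.89. Hnf4a, a hepatocyte transcription factor, was lower under both (log2 fold change -1.06, adjusted p = 0.000155, and -0.73, adjusted p = 5.63e-05). S1pr2, a receptor for conjugated bile acids, rose by 1.61 and 1.90. Fgfr4, the hepatocyte receptor for the FXR-induced ileal hormone, had a log2 fold change of -0.06 under isoflurane (adjusted p = 0.657) and fell under propofol (log2 fold change -0.35, adjusted p = 0.0091).

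**Figure D5:**
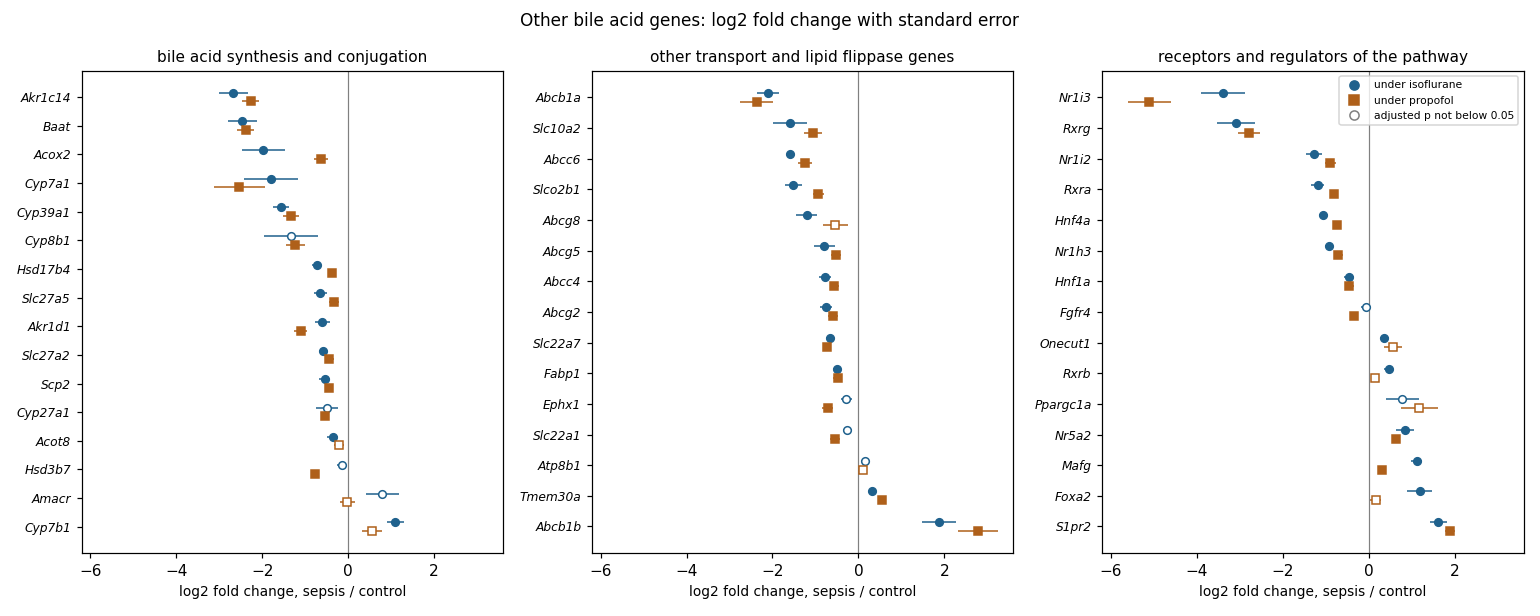
Log2 fold change of sepsis against control, with its standard error, for genes of synthesis and conjugation (left), other transport and lipid flippase genes (middle) and receptors and regulators (right), under isoflurane (circles) and propofol (squares); open symbols did not pass the adjusted p of 0.05. Most synthesis and transport genes lie below 0, Abcb1b lies above 0 under both anesthetics, and the regulators lie on both sides of 0.

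Between the anesthetics in control liver the synthesis genes were called 5 higher and 5 lower of 16 under isoflurane, the other transport genes 4 and 4 of 15, and the regulators 3 and 5 of 15, beside 21.6% higher and 21.7% lower over all genes tested. Cyp7a1 (log2 fold change -1.08, adjusted p = 0.0392), Cyp8b1 (log2 fold change -0.97, adjusted p = 0.00155) and Hnf4a (log2 fold change -0.51, adjusted p = 2.14e-05) were lower under isoflurane, as were Abcc4 (log2 fold change -0.99, adjusted p = 3.02e-05) and Nr1i3 (log2 fold change -1.59, adjusted p = 0.000745). Abcb1b was higher (log2 fold change 2.23, adjusted p = 4.05e-06), and so was Ppargc1a, a coactivator of the fasting response (log2 fold change 1.80, adjusted p = 0.000133). Akr1c14, Abcg2 and Rxrg were also called lower, and S1pr2, Acox2 and Abcg5 were called higher. The call of Cyp7a1 was lost under 8 of 16 alternatives, with DESeq2 (adjusted p = 0.0578), with limma-voom (adjusted p = 0.0625), with all 16 libraries in 1 fit (adjusted p = 0.179) and without library 5, 6, 7, 13 or 14 (adjusted p up to 0.131). That of Cyp8b1 was lost with all 16 libraries in 1 fit (adjusted p = 0.161), as were those of Acox2 (adjusted p = 0.344) and Abcg5 (adjusted p = 0.126). In septic liver 0 and 2 synthesis genes, 0 and 2 other transport genes and 4 and 2 regulators were called higher and lower, beside 10.6% and 8.66% over all genes tested. These 10 calls became 2, 4 and 3 without library 9, 11 and 12, 16 with DESeq2 and 22 with all 16 libraries in 1 fit. Abcc4 was again lower under isoflurane (log2 fold change -1.21, adjusted p = 0.00739). Akr1c14, Hsd17b4, Abcg2, Hnf4a and Nr1h3 were also called lower there, and Foxa2, S1pr2 and Fgfr4 were called higher.

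The genes whose levels most resembled those of 3 members over the 16 libraries were found by the root mean square difference of log2 CPM after each gene was centred. For Slc10a1 they were Qdpr (0.112), Mecr (0.144) and Ddc (0.146), against a median of 0.514 over 8849 genes. For Abcb11 they were Ptprk (0.0777), Ppp1cc (0.0829) and Ghitm (0.0834), against a median of 0.292. For Nr0b2 no gene came as close, and the nearest were Tsku (0.776), Hsd17b2 (0.956) and Fgf21 (0.96), against a median of 2.19 over 8850 genes. The genes compared had to reach a minimum mean log2 CPM that Nr0b2 itself did not reach. Counting error of its few reads adds to every distance, so the larger distances cannot be read as a lack of similar genes. The 16 libraries fall into 4 groups, so this likeness includes that of the group levels.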

How the data were processed

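Per the labels, 16 poly(A), strand-marked, single-end RNA-seq libraries of rat liver were analysed, and the submitters' processing notes name STAR and genome build rn5. Which counting program and annotation were used is not given in the sources used here. The authors deposited counts, that is whole numbers of reads per gene symbol without normalization. Reads outside genes (21.61% to 25.39%) and ambiguous reads (1.074% to 1.351%) were left out. Within groups, chi-square per degree of freedom between libraries was at least 3.351, so no library was taken as a duplicate. Nothing says that pools were processed separately after pooling, and p-values measure the spread between pools.

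Counts were tested with edgeR 4.0.16 (quasi-likelihood test, TMM scaling, filterByExpr at its minimum count, 10, and minimum total, 15) in R 4.3.3, with Benjamini-Hochberg adjustment over all genes tested and calls at an adjusted p below 0.05. Septic and control livers were compared within each anesthetic, and isoflurane with propofol within control and within septic liver, each with 4 libraries against 4. The interaction, isoflurane minus propofol, was fitted on all 16. The fits were run on simulated data with the same dispersion for all genes and groups, and changed genes were drawn from those with higher counts. Such data do not show how the fits behave for genes with few reads, such as Nr0b2, or where groups differ in spread. CPM and SD are over the 4 libraries of a group. A permutation of 4 against 4 libraries cannot go below an exact two-sided p of 0.0286. Alternatives were RLE size factors, library totals alone, DESeq2 1.42.0 (the tool of the study), limma-voom (limma 3.58.1), other filters, thinned counts, 1 joint fit and each library left out.

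The members and gene lists were chosen with earlier results of these data known. Named were all members and, per list and comparison, up to 4 called genes with the largest absolute log2 fold change, plus Cyp7a1, Cyp8b1, Slc51a, Slc51b, Abcc4, Fgfr4 and Hnf4a, not all of which are described in every comparison. Cyp7b1, Rxra and Rxrb fall outside this rule and were chosen after their values were seen. Hepatocyte, cholangiocyte, Kupffer cell, neutrophil and monocyte, endothelial, stellate cell and lymphocyte markers were read as summed levels and by their calls in the same fits. Endothelial and lymphocyte markers are named with their calls.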

Additional observations from a re-analysis of the deposited data

Results flagged for a closer look

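Dixon's test was applied to 40 combinations of a group with a member or older symbol, and 2 libraries stood apart, as chance gives for about 1 in 20 groups. Slc10a1 in propofol control was highest in library 14, at 238 CPM, against 201 to 204 CPM in the other libraries of that group. Abcb11 in Isoflurane-Sepsis was lowest in library 4, at 428 CPM, against 570 to 589 CPM in the others. The same library had the lowest Slc10a1, Slco1a1, Nr1h4 and Cyp8b1 of its group and the highest Abcb4. Without it, 6 members were called in sepsis under isoflurane, as with it.

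Among the members and the named genes, 3 were called for the interaction of anesthetic and sepsis. Over all 10621 genes tested, 1.06% were called lower and 1.66% higher. Hsd3b7 and Mafg were named because they were called, so this number is not a result about the pathway. The fall of Abcb4 was larger under isoflurane (interaction -0.72, adjusted p = 0.0487), a call that was lost under 16 of 23 alternatives. Hsd3b7, an enzyme of bile acid synthesis, fell by 0.77 on the log2 scale under propofol (adjusted p = 0.00024) and had a log2 fold change of -0.15 under isoflurane (adjusted p = 0.248), and its interaction was 0.605 (adjusted p = 0.0388), which was lost without any 1 of libraries 3, 5, 6, 7, 8, 9, 11, 12, 14 and 15. Mafg, a small Maf factor induced by FXR, rose by 1.12 under isoflurane (adjusted p = 0.000226) and by 0.31 under propofol (adjusted p = 0.021), with an interaction of 0.794 (adjusted p = 0.022) that was lost only without library 12 (adjusted p = 0.0514) among the leave-one-out fits.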

How the results depend on the processing

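Of 694 values of single members under the alternatives, 642 kept their direction and their side of the threshold, 44 lost a call, 3 gained one and 5 changed sign. The number of members called stayed between 5 and 6 in sepsis under isoflurane, between 6 and 7 under propofol and between 6 and 7 in control liver. For the interaction, 1 member was called, against 0 with RLE size factors, 0 with no filter on low counts, 0 with thinned counts, 2 with DESeq2 and 0 to 2 with each library left out. In septic liver 3 members were called between the anesthetics, against 0 with no filter, where more genes were tested (13809 against 10272), and 0 to 3 with each library left out. Over all genes the calls went from 289 to 850 with DESeq2 and 168 with no filter for the interaction, from 4468 to 2792 in control liver with all 16 libraries in 1 fit, and from 1982 to 4099 in septic liver with that fit. With library totals alone the log2 fold change of Fgfr4 in control liver became -0.004 and that of Slco1b3 in septic liver -0.009. With each library left out in turn, 54 to 1615 genes were called for the interaction (without library 12 and 1) and 249 to 2867 in septic liver (without library 12 and 1). Of the other genes of bile acid handling, 26 were called in control liver, against 16 with all 16 libraries in 1 fit, and 2 for the interaction, against 0 to 6 with each library left out. Leaving out libraries also changed signs. Fgfr4 in sepsis under isoflurane ranged from -0.16 to 0.011 and Slco1a2 under propofol from -0.171 to 0.055. The interaction ranged from -0.106 to 0.034 for Abcb11, from -0.246 to 0.006 for Slco1b3 and from -0.547 to 0.279 for Cyp8b1. Slc10a1 in control liver ranged from -0.044 to 0.048, and in septic liver Abcc3 ranged from -0.094 to 0.052 and Cyp7a1 from -1.042 to 0.551. The cause of these changes was not tested. No paired analysis was possible because the labels number the libraries 1 to 16 and no groups share a number. The 13 reads of Nr0b2 in Isoflurane-Sepsis limit the precision of its fold change.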
